A study of Mus musculus with 6 samples.

Results

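The transcripts followed here belong to 9 genes whose mutations cause inherited focal segmental glomerulosclerosis (FSGS) or nephrotic syndrome in people through the podocyte cytoskeleton, its signalling or its transcription. They are Actn4, Inf2, Myo1e, Anln, Arhgap24, Arhgdia, Trpc6, Plce1 and Lmx1b, chosen by name, and all 9 were among the 23219 gene symbols measured. Podocytes are the epithelial cells that wrap the glomerular capillaries with interlocking foot processes. Each foot process is held in shape by bundled actin filaments, which are set by small GTPases and by calcium entry, and a simplified actin skeleton goes with loss of the filter's seal. RNA came from whole mouse kidneys on embryonic day 17. The 3 control kidneys (numbered 5, 7 and 11) had the genotype Mta2flx/flx, and the 3 mutant kidneys (6, 8 and 9) had Six2Cre Mta2flx/flx. Both groups therefore carried 2 floxed alleles of Mta2, a subunit of the NuRD chromatin remodelling complex, and only the mutants carried Cre. Six2 Cre acts in nephron progenitors, from which podocytes and tubules arise, and stroma, vessels and collecting ducts lie outside that lineage. The labels do not say whether each kidney is from a different embryo or litter, so the tests capture variation among these 6 RNA samples, and part of it could be technical. Effects of Cre and of Mta2 loss cannot be told apart.

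Levels are given in BPM, the bases covered on a gene per 1e+06 covered bases of the library. Summed depth was 794 to 1235 megabases a library, so 1 BPM stood for 794 to 1235 covered bases. Mta2 itself read 219.7, 198 and 210.5 BPM in controls 5, 7 and 11 and 139.6, 189 and 146 BPM in mutants 6, 8 and 9, lower in each mutant than in each control (exact permutation p = 0.1, two-sided, the smallest that 3 against 3 allows). Of all genes tested, 5.12% were lower in each mutant than in each control. Some libraries stood apart. Control 11 had 22950.4 BPM on Lars2 against 739 to 4823 elsewhere, and mutant 9 carried muscle RNA, with a summed level of 7 skeletal muscle markers of 296 BPM against 4.36 to 11.3 elsewhere. In bulk RNA, fewer cells of a type and less RNA per cell cannot be told apart.

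None of the 9 genes differed between mutant and control kidneys beyond the spread between samples. With limma, 0 of the 9 passed an adjusted p of 0.05, as did 0 of all 13977 genes tested (0%), and 0 of the 9 had an unadjusted p below 0.05, against 5.6% (783) of all genes tested. The equal-variance test used in the deposited table also called 0 after adjustment. The groups overlapped for each of the 9, whereas 11.2% of all genes tested had no overlap. Of the members 4 had a log2 fold change above 0 and 5 below (47.4% of all genes tested lay below), with a median of -0.07 beside 0.02 for all genes tested. The intervals say how much change these data leave room for. For 6 genes (Actn4, Myo1e, Anln, Arhgap24, Arhgdia and Plce1) the 95% interval lay within a 2-fold change in either direction. For Inf2, Trpc6 and Lmx1b it reached past 2-fold on at least 1 side.

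**Figure D1:**
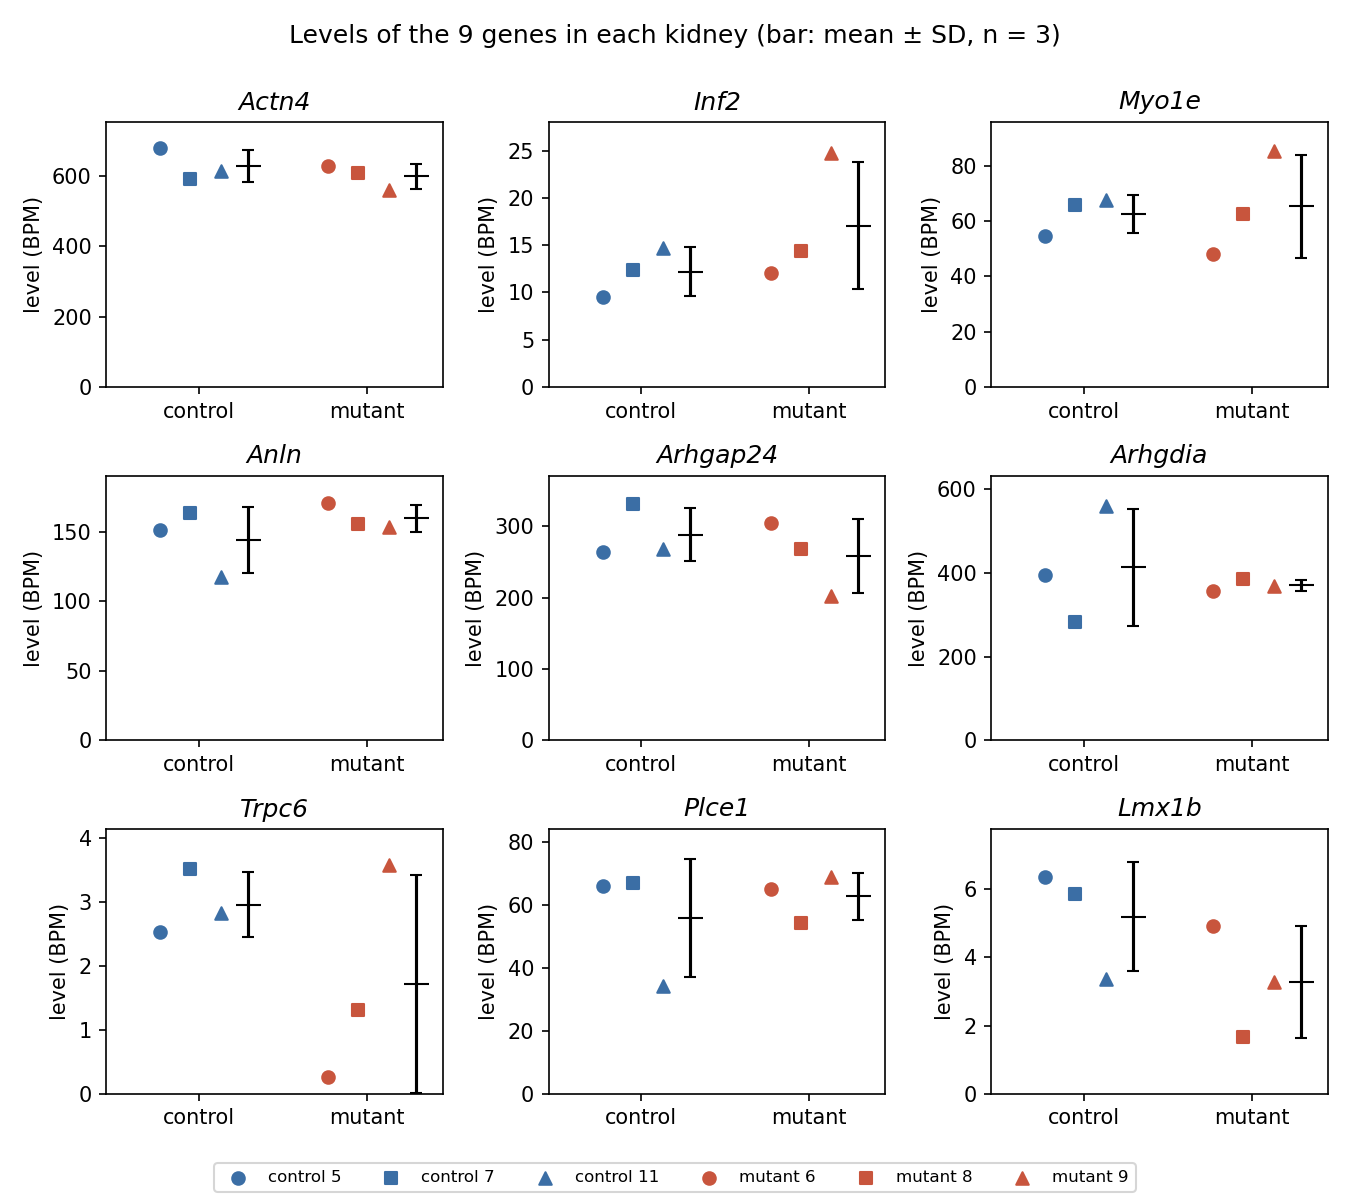
Level of each of the 9 genes in BPM (vertical axes, linear and starting at 0) in the 3 control and 3 mutant kidneys, with 1 point per kidney and a bar for the mean ± SD of each group. The groups overlap in every panel, and the points of control 11 stand out for Arhgdia (561 BPM) and Plce1 (34.4 BPM).

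The genes spanned a wide range of abundance. Per kilobase of exon, the mean over the 6 kidneys was 174 BPM per kb for Arhgdia and 156 for Actn4, whose ranges overlapped, then 55.1 for Arhgap24, 33.0 for Anln and 13.8 for Myo1e, each separate from its neighbours in all 6 kidneys. Plce1 (5.94) and Inf2 (3.66) came next with overlapping ranges, and Lmx1b (0.886) and Trpc6 (0.461) were the lowest, also overlapping. Exonic length was taken from GENCODE release M21 (mm10), and whether the authors counted introns is not given in the sources used here, so these comparisons between genes are approximate. The promoters of the 2 most and the 2 least abundant genes are shown so that the ends of this range can be read side by side. They are the 250 bases before the transcription start in RefSeq (GRCm38.p6), 5′ to 3′ on the gene's strand, with capitals for matches on either strand. The motifs searched were GGGCGG (the GC box), the CCAAT box, the sequence TTTGAA, the homeodomain core TAATTA and the CArG box bound by serum response factor.
Arhgdia: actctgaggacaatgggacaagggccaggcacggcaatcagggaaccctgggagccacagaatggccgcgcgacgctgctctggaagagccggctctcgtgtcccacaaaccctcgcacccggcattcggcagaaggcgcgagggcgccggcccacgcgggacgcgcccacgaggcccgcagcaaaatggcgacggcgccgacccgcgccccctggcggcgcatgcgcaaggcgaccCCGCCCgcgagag
Actn4: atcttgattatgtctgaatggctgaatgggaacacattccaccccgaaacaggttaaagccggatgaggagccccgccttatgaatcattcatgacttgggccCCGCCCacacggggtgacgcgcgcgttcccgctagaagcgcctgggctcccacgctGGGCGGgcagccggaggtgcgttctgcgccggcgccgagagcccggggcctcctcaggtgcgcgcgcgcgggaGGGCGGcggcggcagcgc
Lmx1b: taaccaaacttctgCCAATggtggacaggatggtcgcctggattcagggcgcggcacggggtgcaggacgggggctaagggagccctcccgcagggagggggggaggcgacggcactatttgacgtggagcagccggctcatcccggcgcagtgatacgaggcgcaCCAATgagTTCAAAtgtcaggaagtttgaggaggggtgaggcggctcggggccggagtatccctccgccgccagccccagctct
Trpc6: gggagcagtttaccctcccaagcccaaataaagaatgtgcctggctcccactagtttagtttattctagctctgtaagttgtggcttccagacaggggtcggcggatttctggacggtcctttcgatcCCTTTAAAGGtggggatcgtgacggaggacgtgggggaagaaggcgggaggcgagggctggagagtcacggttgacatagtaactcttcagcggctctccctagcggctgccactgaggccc
These windows are chr11:120581625-120581874 (minus strand) for Arhgdia, the first of its 2 listed starts, chr7:28962333-28962582 (minus) for Actn4, chr2:33641099-33641348 (minus) for Lmx1b and chr9:8543892-8544141 (plus) for Trpc6. They held 33, 29, 19 and 12 CG dinucleotides in that order, against a median of 15 over 13058 promoter windows of genes tested. GGGCGG was found 1 time in this Arhgdia window and 3 times for Actn4 but not in the Lmx1b or Trpc6 window, and 56.6% of all windows hold it. The window of the second Arhgdia start held 8 matches and 40 CG dinucleotides, more than the Actn4 window on both counts. Its matches that begin at bases -168, -164, -160 and -155 from the start overlap in a continuous run, so they are not separate sites. Low abundance did not go with absence of GGGCGG throughout, since the first Inf2 window had 5 matches, a pair of which overlap by 1 base. CCAAT (35% of windows) was found 2 times for Lmx1b and 1 time for Myo1e, and TTTGAA (10.5%) 1 time each for Lmx1b and Plce1. Trpc6 and Myo1e each had 1 CArG match, which 1.13% of windows hold. TAATTA (2.62% of windows) was in none of the member windows. Promoters of 8 of the 9 genes were matched, Arhgap24 not among them, and letter matches describe a sequence only.

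Actn4 encodes alpha-actinin-4, which crosslinks actin filaments in foot processes, and lies on chromosome 7 from 28893248 to 28962340 (minus strand, mm10). It read 679.7, 593 and 615 BPM in controls 5, 7 and 11 and 630.0, 609 and 559.7 BPM in mutants 6, 8 and 9. Control 5 was the highest and mutant 9 the lowest, with the other 4 kidneys between them in mixed order. The means were 629 ± 45.2 and 599.5 ± 36.1 BPM (SD, n = 3 each), and the log2 fold change was -0.07 (95% interval -0.41 to 0.27, limma adjusted p = 0.972). It was the most precisely measured of the 9 genes, with an interval of 0.752-fold to 1.21-fold. At its 3′ side an exon of the opposite-strand gene Capn12 overlaps an Actn4 exon by 316 bases in the annotation, and whether reads were assigned by strand is not given.

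Other alpha-actinins were far lower per length. Actn1, the other nonmuscle form, averaged 19.1 BPM per kb against 156 for Actn4, and its log2 fold change was -0.03 (adjusted p = 0.994, limma). The muscle forms Actn3 (3.31 BPM per kb, log2 fold change -0.33) and Actn2 (1.01 BPM per kb, not tested for low values) are named to complete the family. Actn2 and Actn3 were both highest in mutant 9, the library with muscle RNA, at 15.9 and 16.7 BPM.

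Myo1e encodes a membrane-linked class I myosin of the podocyte (chromosome 9, 70207350 to 70399766, plus strand). It read 54.7, 65.6 and 67.4 BPM in controls 5, 7 and 11 and 48.1, 62.5 and 85.1 BPM in mutants 6, 8 and 9. The mutants held both the lowest and the highest value, so the control range lay inside the mutant range. The means were 62.6 ± 6.86 and 65.2 ± 18.7 BPM (SD, n = 3 each), with a log2 fold change of 0.03 (95% interval -0.54 to 0.59, adjusted p = 0.994, limma). Its sign depended on single kidneys, at -0.07 without control 5 and -0.18 without mutant 9. Among the other class I myosins Myo1c was more abundant per length, at 49.1 BPM per kb against 13.8 for Myo1e. Myo1c, which also acts in podocytes, stood at 287 ± 24.6 and 244 ± 9.33 BPM (log2 fold change -0.23, adjusted p = 0.914, limma), the only class I myosin without overlap between the groups. Myo1f, a leukocyte form, had a log2 fold change of 1.32 at adjusted p = 0.887 (limma). Myo1f read 13.1 BPM in mutant 6 and 0 to 3.59 BPM in the other kidneys.

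Inf2 encodes an inverted formin that both builds and severs actin filaments (chromosome 12, 112588784 to 112615557, plus strand). It read 9.52, 12.4 and 14.7 BPM in controls 5, 7 and 11 and 12.1, 14.4 and 24.7 BPM in mutants 6, 8 and 9. Apart from mutant 9 the mutants lay within the control range. The means were 12.2 ± 2.59 and 17.1 ± 6.73 BPM (SD, n = 3 each), the highest ratio of the 9 genes at 140.05% of control, yet the log2 fold change of 0.41 had a 95% interval of -0.53 to 1.35 (adjusted p = 0.931, limma). Without mutant 9 the log2 fold change was 0.13. Mutant 9 is the library with muscle RNA, whose part in the Inf2 value was not tested. The gene rested on 7554 to 24597 covered bases per library, a mean depth of 1.89 to 6.15 over its exons.

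Most other formins lay slightly above 0. Of 13 other formins tested, 9 were above and 4 below, with a median of 0.15, and 0 passed. Diaph3, a formin driven by small GTPases, averaged 24.0 ± 10.1 BPM in the controls and 38.4 ± 9.62 BPM in the mutants (log2 fold change 0.70, adjusted p = 0.887, limma, SD, n = 3 each). Its relative Diaph1 had a log2 fold change of 0.36 and Fmnl2, a formin of cell protrusions, of 0.35, at adjusted p = 0.896 and 0.909. The summed level of these 13 formins was lowest in control 11, at 675 BPM, against 846 to 993 BPM in the other kidneys.

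Anln encodes anillin, which ties actin, myosin and septins together in the ring that divides cells, and it is also expressed in podocytes (chromosome 9, 22332012 to 22389188, minus strand). It read 151, 163 and 117 BPM in controls 5, 7 and 11 and 170.5, 155 and 153 BPM in mutants 6, 8 and 9. Mutants 8 and 9 lay between controls 5 and 7, and control 11 was below all others. The means were 144 ± 23.8 and 159.6 ± 9.48 BPM (SD, n = 3 each). The log2 fold change was 0.16 (95% interval -0.28 to 0.60, adjusted p = 0.947, limma), which was 0.02 without control 11. Anln was also set against markers of dividing cells. The 12 markers, Mki67 and Top2a among them, had 11 log2 fold changes above 0 and a median of 0.27, with a summed level of 1448 BPM in control 11, 2260 and 2546 BPM in the other controls and 2368 to 2540.0 BPM in the mutants. Relative to the mean log2 level of these markers Anln stood at 0.29, 0.43 and 0.38 in controls 5, 7 and 11 and at 0.33, 0.25 and 0.23 in mutants 6, 8 and 9, a difference of -0.10 (exact permutation p = 0.2, two-sided).

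The partners of anillin in cytokinesis were spread around a somewhat higher middle. Of 11 partners tested, 9 lay above 0 and 2 below, with a median of 0.28, and 0 passed. Myh10, nonmuscle myosin IIB of the contractile ring, averaged 989 ± 254 BPM in the controls and 1278 ± 93.5 BPM in the mutants (log2 fold change 0.40, adjusted p = 0.854, limma, SD, n = 3 each). Myh10 was lowest in control 11, at 706 BPM. Kif23, a motor of the central spindle, had a log2 fold change of 0.41 and Kif20a of 0.33, at adjusted p = 0.895 and 0.902 (limma). Both were lowest in control 11, Kif23 at 55.4 BPM against 104 to 127 elsewhere and Kif20a at 90.7 BPM against 142 to 171. Myh9, nonmuscle myosin IIA, whose human gene is itself tied to glomerular disease, was at -0.06.

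Arhgap24 encodes FilGAP, which switches off the GTPase Rac1 and is bound by filamin A (chromosome 5, 102481391 to 102897937, plus strand). It read 265, 331 and 269 BPM in controls 5, 7 and 11 and 305, 268 and 203 BPM in mutants 6, 8 and 9. Mutant 9 was below the other 5 kidneys, which overlapped. The means were 288 ± 37.3 and 259 ± 51.8 BPM (SD, n = 3 each). The log2 fold change was -0.17 (95% interval -0.58 to 0.24, adjusted p = 0.934, limma). Without mutant 9 it was -0.00341. Its relatives Arhgap22 and Arhgap25 were scarce, at 1.06 and 1.65 BPM per kb against 55.1 for Arhgap24.

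Arhgdia encodes RhoGDI alpha, which holds Rac1, Cdc42 and related small GTPases inactive in the cytosol (chromosome 11, 120578104 to 120581624, minus strand). It read 396, 283 and 561 BPM in controls 5, 7 and 11 and 357, 385 and 369 BPM in mutants 6, 8 and 9. The mutants were close together and lay inside the control range, whose ends were controls 7 and 11. The means were 413 ± 139.9 and 370.4 ± 13.9 BPM (SD, n = 3 each). The log2 fold change was -0.10 (95% interval -0.52 to 0.31, adjusted p = 0.965, limma). Without control 11 the sign turned, to 0.15. Of its relatives, Arhgdib, the leukocyte form, had a log2 fold change of 0.22 and Arhgdig of 1.16, from 4.05 ± 2.53 to 10.9 ± 6.95 BPM (SD, n = 3 each, adjusted p = 0.887, limma).

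The GTPases that these regulators act on were also without a call. Of 24 other genes of the list of small GTPases and their podocyte regulators tested, 15 lay above 0 and 9 below, with a median of 0.11. Kank4, whose human gene is mutated in nephrotic syndrome, averaged 88.6 ± 4.47 BPM in the controls and 126 ± 10.5 BPM in the mutants with no overlap (log2 fold change 0.50, adjusted p = 0.863, limma, SD, n = 3 each). Flna, which encodes the FilGAP partner filamin A, had a log2 fold change of 0.22, and Cfl1, the actin-severing cofilin, of -0.37, both at adjusted p = 0.896 (limma). Rac1, the target of FilGAP, was at 0.30 with no overlap (adjusted p = 0.897, limma), Rhoa at -0.08 and Cdc42 at 0.03. Cfl1 was highest in control 11, as Arhgdia was, at 762 BPM against 309 to 408 in the other kidneys.

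Trpc6 encodes a calcium-permeable cation channel near the slit diaphragm, opened by diacylglycerol (chromosome 9, 8544142 to 8680741, plus strand). It read 2.53, 3.51 and 2.83 BPM in controls 5, 7 and 11 and 0.257, 1.31 and 3.59 BPM in mutants 6, 8 and 9. Mutants 6 and 8 were below all 3 controls and mutant 9 was above them. The means were 2.96 ± 0.502 and 1.72 ± 1.70 BPM (SD, n = 3 each), 58.0% of control, with a log2 fold change of -0.73 and a 95% interval of -2.29 to 0.83 (adjusted p = 0.93, limma). It was -0.28 without mutant 6 and -1.21 without mutant 9. Only 279 covered bases supported the gene in mutant 6 and 4339 or fewer in the other libraries, less than 1 base of depth per exonic base throughout. The part of this low coverage in the width of the interval was not tested.

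Other TRPC channels were low as well. Per length, Trpc2 (5.58 BPM per kb) and Trpc1 (3.65) exceeded Trpc6 (0.461), and Trpc5 was listed at 0 in all 6 kidneys. Trpc2 had a log2 fold change of 0.28 at adjusted p = 0.956 (limma). Calcium entering through TRPC6 activates calcineurin, which sends NFAT factors to the nucleus. Of 11 calcineurin and NFAT genes tested, 7 lay above 0 and 4 below, with a median of 0.12, and 0 passed. Ppp3cc, a catalytic subunit, averaged 5.72 ± 3.31 BPM in the controls and 13.6 ± 1.82 BPM in the mutants with no overlap (log2 fold change 1.22, adjusted p = 0.863, limma, SD, n = 3 each). Nfatc1 stood at 10.7 ± 1.54 and 21.9 ± 9.44 BPM (log2 fold change 0.90, adjusted p = 0.887) and Nfatc2 at 8.40 ± 3.01 and 2.99 ± 2.55 BPM (-1.37, adjusted p = 0.882), so these 2 NFAT genes had opposite signs. Rcan1, a feedback inhibitor of calcineurin and an NFAT target, was at -0.10.

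Plce1 encodes phospholipase C epsilon, which cuts a membrane lipid into diacylglycerol and inositol trisphosphate (chromosome 19, 38481109 to 38785030, plus strand). It read 66.2, 67.1 and 34.4 BPM in controls 5, 7 and 11 and 65.0, 54.5 and 68.9 BPM in mutants 6, 8 and 9. Control 11 was below the other kidneys, which overlapped. The means were 55.9 ± 18.6 and 62.8 ± 7.46 BPM (SD, n = 3 each). The log2 fold change was 0.22 (95% interval -0.37 to 0.81, adjusted p = 0.939, limma), which turned to -0.09 without control 11. Of 18 other genes of this list tested, 8 lay above 0 and 10 below, with a median of -0.07. Prkca, a kinase that diacylglycerol activates, stood at 61.4 ± 13.5 and 97.1 ± 29.4 BPM (log2 fold change 0.64, adjusted p = 0.854, limma, SD, n = 3 each). Itpr1, a receptor for inositol trisphosphate, stood at 444 ± 32.9 and 355 ± 18.3 BPM (-0.32) and Plcd3 at 13.0 ± 3.91 and 6.46 ± 1.76 BPM (-0.90), both at adjusted p = 0.887 (limma). All 3 were without overlap between the groups, and Iqgap1, a scaffold that binds phospholipase C epsilon, was at -0.12.

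**Figure D2:**
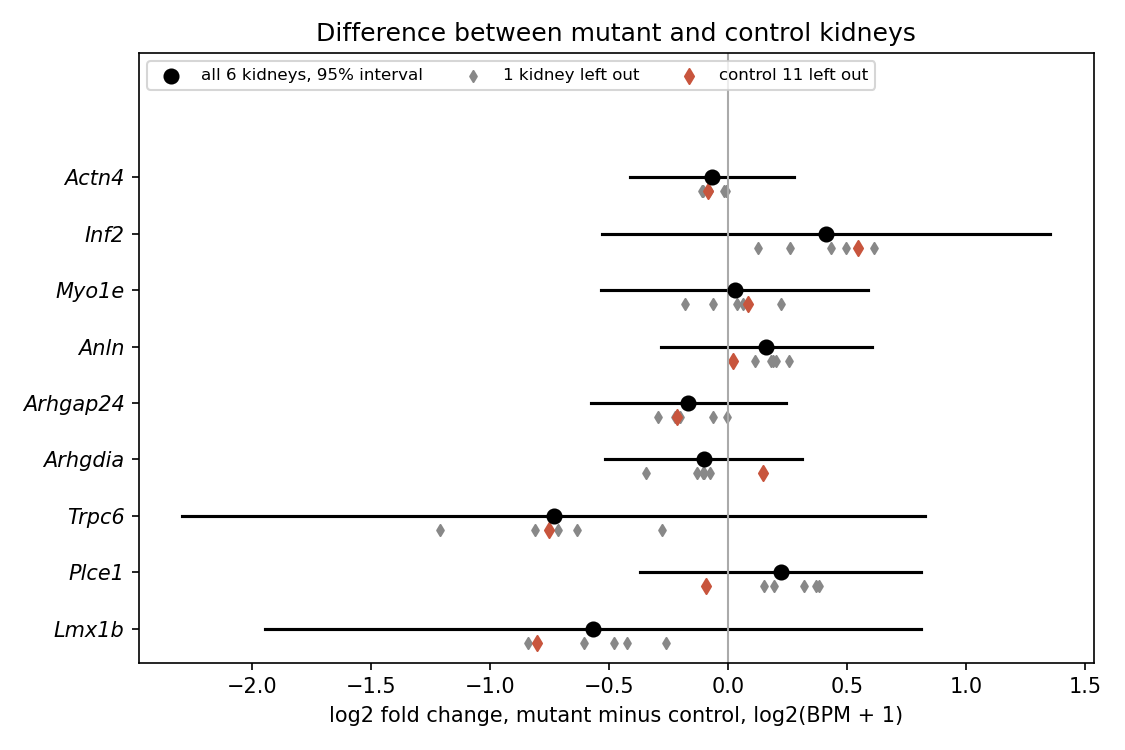
Log2 fold change of each gene, mutant minus control on the log2(BPM + 1) scale (horizontal axis), as a black point with its 95% interval from limma, and below it the values with 1 kidney left out (grey) or with control 11 left out (red). Every interval includes 0, and leaving out control 11 moves Arhgdia to 0.15 and Plce1 to -0.09.

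Control 11 also differed from the other libraries by transcript length. Genes tested were divided by exonic length into 3 classes of near equal size, and each library was set against the mean of the other 5. In control 11 the median difference was -0.22 on the log2 scale for the 4389 longest genes (4.38 kb or more) and 0.07 for the 4391 shortest (up to 2.54 kb). In the other 5 libraries it ran from 0.06 to 0.08 for the longest and from -0.03 to 0.06 for the shortest. The reference of each of these 5 includes control 11, so their values are not independent of it. Plce1, with 10.0 kb of exon, was at its lowest in control 11, and Arhgdia, with 2.26 kb, at its highest. Anln (4.61 kb) was also lowest there, whereas Myo1e (4.62 kb), Lmx1b (4.79 kb), Arhgap24 (4.96 kb) and Trpc6 (5.07 kb) were not. The part of transcript length in these values was not tested.

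**Figure D3:**
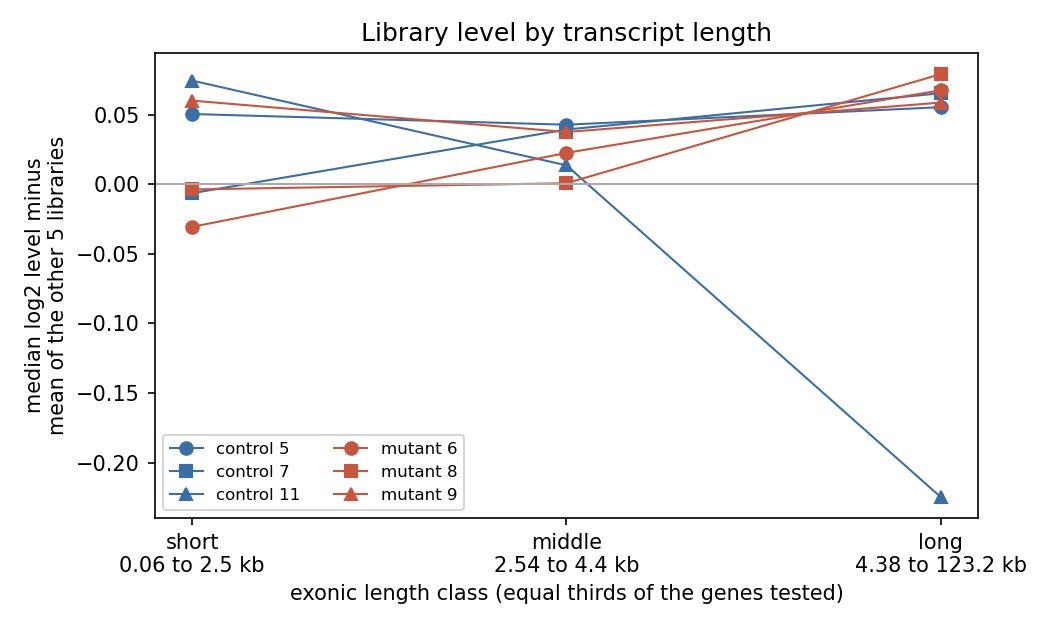
Median log2 level of the genes in each of 3 classes of exonic length (horizontal axis), in each library minus the mean of the other 5 libraries (vertical axis). Control 11 falls to -0.22 for the longest genes, while the other 5 libraries, whose reference includes control 11, lie between 0.06 and 0.08 there.

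Lmx1b encodes a LIM-homeodomain factor that podocytes need for their differentiation, and its human gene is mutated in nail-patella syndrome and in kidney-limited FSGS (chromosome 2, 33560965 to 33640511, minus strand). It read 6.37, 5.85 and 3.37 BPM in controls 5, 7 and 11 and 4.93, 1.65 and 3.28 BPM in mutants 6, 8 and 9. Controls 5 and 7 were above all mutants, but control 11 was below mutant 6. The means were 5.20 ± 1.60 and 3.29 ± 1.64 BPM (SD, n = 3 each), 63.3% of control, with a log2 fold change of -0.57 and a 95% interval of -1.95 to 0.81 (adjusted p = 0.934, limma, exact permutation p = 0.2). It was -0.84 without mutant 6 and -0.26 without mutant 8. The gene rested on 1553 to 7227 covered bases, and the part of this coverage in its wide interval was not tested. Its relative Lmx1a was listed at 0 in 5 kidneys.

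Among podocyte transcription factors and Lmx1b partners, 5 of 7 others tested lay above 0 and 2 below, Wt1 among the latter. Wt1 stood at 107 ± 5.59 and 82.7 ± 10.3 BPM with no overlap (SD, n = 3 each, log2 fold change -0.37, adjusted p = 0.896, limma). Ldb2, a cofactor of LIM-homeodomain proteins, was at 0.49 (adjusted p = 0.874, limma). Its level was lowest in control 11, at 93.6 BPM against 154 to 215 BPM in the other kidneys. Of 4 reported Lmx1b targets in podocytes, 3 lay below 0, Col4a3 (log2 fold change -0.76) and Col4a4 (-0.35) among them, and Cd2ap (0.51) lay above. None of the 4 passed (limma adjusted p from 0.854 to 0.909), and Col4a3 and Col4a4 were lower without overlap. Cd2ap, an actin adaptor of the slit diaphragm, read 194, 233 and 92.2 BPM in controls 5, 7 and 11 and 233, 235 and 222 BPM in the mutants, and only control 11 was far from the rest.

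Podocyte identity was then measured beside the 9 genes. The 9 podocyte markers, Nphs1, Synpo, Podxl, Ptpro, Clic5, Thsd7a and Rhpn1 among them, were all detected in every kidney. All 9 had a log2 fold change below 0 (median -0.49), although 0 passed and each overlapped between the groups. Of the 9 markers, 4 had an unadjusted limma p below 0.05, against 2.7% of all genes tested that were lower at this threshold. The marker lists were chosen with earlier results of these data known, so such counts describe and do not test. Their summed level was 1608, 1660 and 1124 BPM in controls 5, 7 and 11 and 1088, 1131 and 1038 BPM in mutants 6, 8 and 9. The summed level of the 9 FSGS genes, most of it Actn4, Arhgdia and Arhgap24, was 1525 to 1685 BPM in control kidneys and 1470.2 to 1593 BPM in mutant ones. The part of podocyte content in their values was not tested.

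Set against the podocyte markers of the same kidney, 3 of the 9 genes were higher in each mutant than in each control. Relative to the mean log2 level of the 9 markers, Plce1 stood at -0.46, -0.64 and -1.04 in controls 5, 7 and 11 and at 0.38, -0.32 and 0.02 in mutants 6, 8 and 9, a difference of 0.74. Anln stood at 0.72, 0.63 and 0.70 in the controls and at 1.75, 1.17 and 1.16 in the mutants, a difference of 0.68. Inf2 stood at -3.14, -2.99 and -2.22 in the controls and at -1.96, -2.17 and -1.42 in the mutants, a difference of 0.93, with control 11 and mutant 8 nearly level. Each gave an exact permutation p of 0.1 (two-sided), the smallest possible. This is no result about these genes, since 30.3% of all genes tested were higher without overlap on this scale, where the reference itself differed by -0.52. The difference was -0.05 for Lmx1b (exact permutation p = 0.9) and -0.21 for Trpc6 (exact permutation p = 0.7), with mutants on either side of the controls for both. Arhgap24, Arhgdia, Actn4 and Myo1e had differences of 0.35 to 0.55 with overlap.

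**Figure D4:**
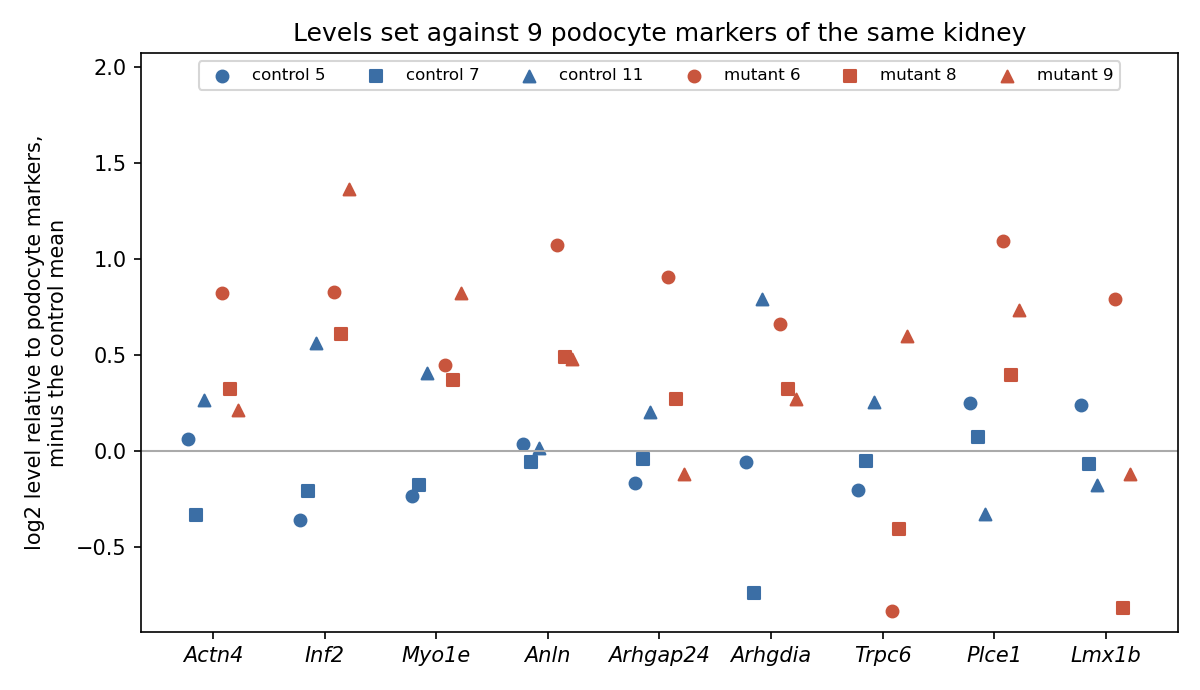
Log2(BPM + 1) of each gene minus the mean of 9 podocyte markers in the same kidney, shown as the distance from the control mean (vertical axis), with 1 point per kidney. The mutant points lie above all control points for Inf2, Anln and Plce1, and on both sides of them for Trpc6 and Lmx1b.

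Across the 12 families and pathways around the 9 genes, 0 of 113 other genes tested passed. In all 69 lay above 0 and 44 below, with a median of 0.10, 12 were higher and 7 lower without overlap (6.1% and 5.12% of all genes tested), and 6 higher and 3 lower had an unadjusted p below 0.05 (2.9% and 2.7%). In the list of other podocyte actin and adhesion genes, 6 lay above 0 and 6 below. Palld, which encodes the actin-bundling palladin, stood at 17.6 ± 10.9 and 30.2 ± 6.81 BPM (log2 fold change 0.96, adjusted p = 0.863, limma, SD, n = 3 each), with 5.51 BPM in control 5. Itga3, the laminin-binding integrin subunit of podocytes, did not overlap between the groups and stood at 194 ± 36.4 and 149 ± 15.6 BPM (-0.37, adjusted p = 0.887) and Ezr, which links podocalyxin to actin, at 393 ± 34.8 and 326 ± 48.7 BPM (-0.28, adjusted p = 0.896).

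**Figure D5:**
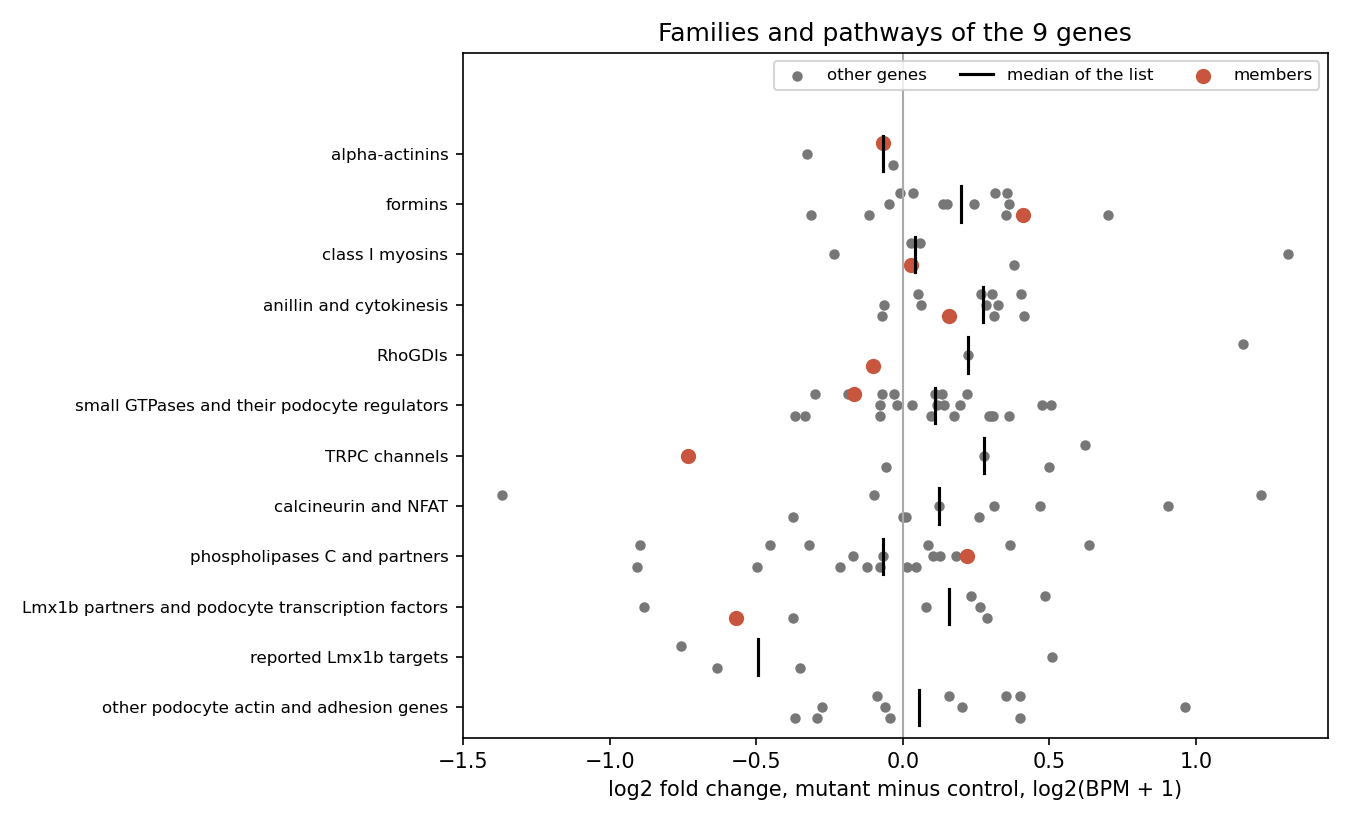
Log2 fold change (horizontal axis, mutant minus control, log2(BPM + 1) scale) of the genes tested in 12 families and pathways, with the 9 genes in red, others in grey and the median of each list as a black line. Medians run from -0.49 for reported Lmx1b targets to 0.28 for TRPC channels, and 0 of the points passed an adjusted p of 0.05.

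In the authors' deposited table the ratio of group means ran from 0.58 for Trpc6 and 0.633 for Lmx1b to 1.12 for Plce1 and 1.40 for Inf2. The unadjusted p-values in the authors' deposited table ran from 0.223 for Lmx1b to 0.829 for Myo1e, so none of the 9 genes was below 0.05 there, whereas Mta2 had a p of 0.0369.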

How the data were processed

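RNA-seq of 6 kidneys was used, 3 control and 3 mutant. Per the labels' protocols, ribosomal RNA was removed from column-purified total RNA before Ion Torrent library construction. The submitters' processing notes name mm10 and bedtools. No aligner, annotation or read filter is stated. In the deposited table the signal is summed base coverage of a gene, plus 1, times a factor for the library, as read from the values (100% whole after division by the column floor, tolerance 0.001). The deposited ratio is mutant over control mean. The p-value deposited by the authors is unadjusted and was recomputed with equal variances to within 9.36e-12. The design also foresaw counts, which the table does not hold, so no count model was run, and read numbers and counting error are unknown.

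The floor was removed and covered bases were scaled to 1e+06 for each library (BPM). Testing took genes that reached 1 BPM in 3 or more libraries (13977 of 23219, all 9 members among them). Both groups were compared on log2(BPM + 1) in limma 3.58.1 (R 4.3.3) with trend and robust options and without covariates. P-values were two-sided and adjusted by Benjamini-Hochberg over all genes tested. Fold changes on this scale understate those of low genes. Exact permutation tests over 6 kidneys cannot go below 0.1. Tested on simulated data of like spread, the fit recovered only a small part of the 2-fold changes, so the absence of calls does not show that genes did not differ.

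The members and gene lists were chosen with earlier results of these data known. Apart from the members, up to 3 genes of each list with the smallest unadjusted p are named, with relatives of the members. Rcan1, Rac1, Rhoa, Cdc42, Myh9, Iqgap1 and Col4a4 were added after their values were seen. Some list members that this rule would name are not reported here, but they stay in all counts and medians. Symbols were matched to GENCODE M21 or, for older names, to RefSeq synonyms. Alternatives changed the scaling, filter, pseudocount, trend, sample weights and libraries.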

Additional observations from a re-analysis of the deposited data

How the results depend on the processing

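No paired analysis was possible because the label numbers (5, 7 and 11 against 6, 8 and 9) are not shared between the groups. Under the alternatives run, 0 of the 9 members passed an adjusted p of 0.05 in each. At an unadjusted p of 0.05, applied to the main fit only, 0 passed as well. Over all genes limma called 0, but 1 without the trend, 4 with sample weights, 0 to 8 with 1 kidney left out (8 when control 11 was dropped, 3 when mutant 8 was) and 22 with control 11 and mutant 6 both dropped. With a minimum of 5 BPM 3 members lay below 0 in place of 5, since Trpc6 and Lmx1b were then not tested. Signs turned for Myo1e (-0.00176 with quantile normalization, -0.18 to 0.22 with 1 kidney left out), Arhgdia (-0.35 to 0.15 with 1 kidney left out, 0.17 without control 11 and mutant 6), Plce1 (-0.0915 to 0.38, and -0.12) and Anln (0.02 to 0.26, and -0.0285). Relative to podocyte markers, Lmx1b ran from -0.47 to 0.34 and Trpc6 from -0.62 to 0.10 with 1 kidney left out. Actn4, Inf2, Arhgap24, Trpc6 and Lmx1b kept their sign against control in each alternative that tested them. Trpc6 moved to -1.30 with a pseudocount of 0.1 and -1.44 with 0.01, and Lmx1b reached -1.08 without control 11 and mutant 6. Fold changes of low genes grow with a smaller pseudocount, and Trpc6 read 0.257 to 3.59 BPM. Control 11 held the lowest control value of Lmx1b (3.37 BPM) and mutant 6 its highest mutant value (4.93 BPM). The cause of the other moves was not tested. Median-of-ratios and quantile scaling shifted all genes by a median of -0.0247 and -0.0253. Trpc6, Lmx1b and Inf2 had the lowest coverage per length, and what depth adds to their error was not tested.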

Other observations

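For 3 of the genes the closest profiles over the 6 kidneys were looked up among 11512 or 11513 other genes with a mean of at least 5 BPM, by the root mean square difference of centred log2 levels. For Actn4 they were Lman1 (0.0309), Rbbp4 (0.0396) and Mbtps1 (0.046). For Anln they were Nrp1 (0.0347), Zbtb44 (0.0354) and Eif4g2 (0.0418), none of them a marker of dividing cells in the list used. For Lmx1b they were Prrg4 (0.0781), Exoc6 (0.11) and Necap1 (0.121). For scale, 5% of the candidates lay within 0.152 of Actn4, 0.15 of Anln and 0.381 of Lmx1b.

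Markers of other cells were measured beside the 9 genes, and 0 of them passed an adjusted p of 0.05 in limma. Proximal tubules, like podocytes, arise from Six2-expressing progenitors, and all 6 of their markers had a log2 fold change below 0 (median -0.63). Of these, 5 had an unadjusted limma p below 0.05 and 3 were lower without overlap, against 2.7% and 5.12% of all genes tested. Their summed level was 5076 to 6313 BPM in control and 2921 to 4340.2 BPM in mutant kidneys. Of 6 nephron progenitor markers 4 lay above 0 and 2 below. Among them 2 higher and 2 lower had an unadjusted limma p below 0.05, against 2.9% and 2.7% of all genes tested. Of 6 ureteric bud and collecting duct markers 5 lay above 0 (median 0.21), with sums of 227 to 275 BPM in control and 281 to 319.8 BPM in mutant kidneys. The 7 stromal markers had a median of 0.05 and the 7 mesangial and smooth muscle markers of 0.01. The 7 endothelial markers had a median log2 fold change of -0.02, and their summed level was 939 to 1234 BPM in control and 1076 to 1119.9 BPM in mutant kidneys. The 5 macrophage entries tested had a median of -0.37. The summed level of the macrophage list was 76.9 to 89.3 BPM in control and 55.2 to 72.6 BPM in mutant kidneys. Emr1 was listed under both its names (Emr1 and Adgre1), so it counts 2 times among these entries, in their median and in the sums. Erythroid markers had a summed level of 6879 BPM in control 11 against 2241 to 4364 BPM in the other kidneys. The part of these cells in the values of the 9 genes was not tested.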
